A study of Mus musculus with 8 samples.

Results

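Long intergenic noncoding RNAs were measured in mouse mammary tumours with 16194 array probes that are named by a stretch of the genome and a strand, and not by a gene. Members were chosen by their detection marks: a probe was kept where the scanner software had marked it well above background throughout 1 or more of the 6 groups, which left 4945 of the 16194. The array held 55681 distinct probes in all, of which 28495 passed the same rule. The detection marks therefore fixed who is a member, and shares of detected probes are given below as a description without a test. All positions are in mm9, the mouse assembly of the array design, as the array files give them, and no gene annotation of these positions was used here.

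RNA came from 16 tumours on 8 arrays, each array carrying 1 tumour in red (Cy5) and 1 in green (Cy3). The tumours were pieces of MMTV-PyMT tumour, grown orthotopically in wild-type FVB mice; in this model the MMTV promoter drives the polyoma middle T oncogene mainly in mammary epithelium, so the transgene was shared by every group. RANK-Fc, a soluble decoy receptor for RANK ligand, was given intraperitoneally at 10 mg/kg, 3 times per week. There were 2 tumours of passage 1 without RANK-Fc (c566, c564), 3 of passage 1 with it (c558, c567, c559), and 2 of passage 2 from untreated tissue that were not treated (c642, c641). A further 3 tumours of passage 2 received it in that passage alone (current RANK-Fc: c633, c635, c646), 3 descended from treated tissue and were not treated again (prior RANK-Fc: c608, c603, c609), and 3 had both (prior and current RANK-Fc: c607, c606, c626). Reading "prior" as treatment in passage 1 follows from the group codes. The parent of each passage 2 tumour is not named in the labels, nor do they say whether the tumours of a group share a donor, so the p-values measure only the spread between these tumours.

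Long intergenic noncoding RNAs are transcripts from between protein-coding genes that code for no known protein, are often spliced and polyadenylated like messenger RNA, and are usually present at lower levels and in fewer cell types than messenger RNAs. Some act on chromatin or on neighbouring genes, some serve as scaffolds or as hosts for small RNAs, and for many no function is known. In the mammary gland such transcripts include PINC, which is linked to alveolar differentiation, and H19, an imprinted transcript of growing tissue.

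No probe was saturated, and between 47.5% and 56.5% of the spots of a tumour were well above background. The 8 mammary epithelial markers looked up were above background in all 16 tumours, as were all 6 fibroblast, all 5 macrophage and all 3 endothelial markers. Of 3 B cell markers, none was above background in all tumours and 1 was above it in none. The tumours are whole tissue, in which fewer cells of a type and less RNA per cell cannot be told apart.

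Long intergenic RNA probes were detected less widely than the rest of the array. In a single tumour, 24.5% to 36.9% of the 16194 probes were well above background, against 54.9% to 63.0% of the other 39487 probes. At the level of the whole set, 30.5% of the long intergenic probes passed the rule against 59.6% of the others. In all 16 tumours 3210 of them (19.8%) were above background, in no tumour 7892 (48.7%). Group means overlapped widely, from 29.8% ± 6.72 (SD, n = 2) in passage 2 controls to 33.2% ± 4.42 (SD, n = 2) in passage 1 controls. The dye moved with the share: the 8 Cy3 tumours had 33.5% to 36.9% and the 8 Cy5 tumours 24.5% to 30.9%, and these ranges did not meet.

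**Figure D1:**
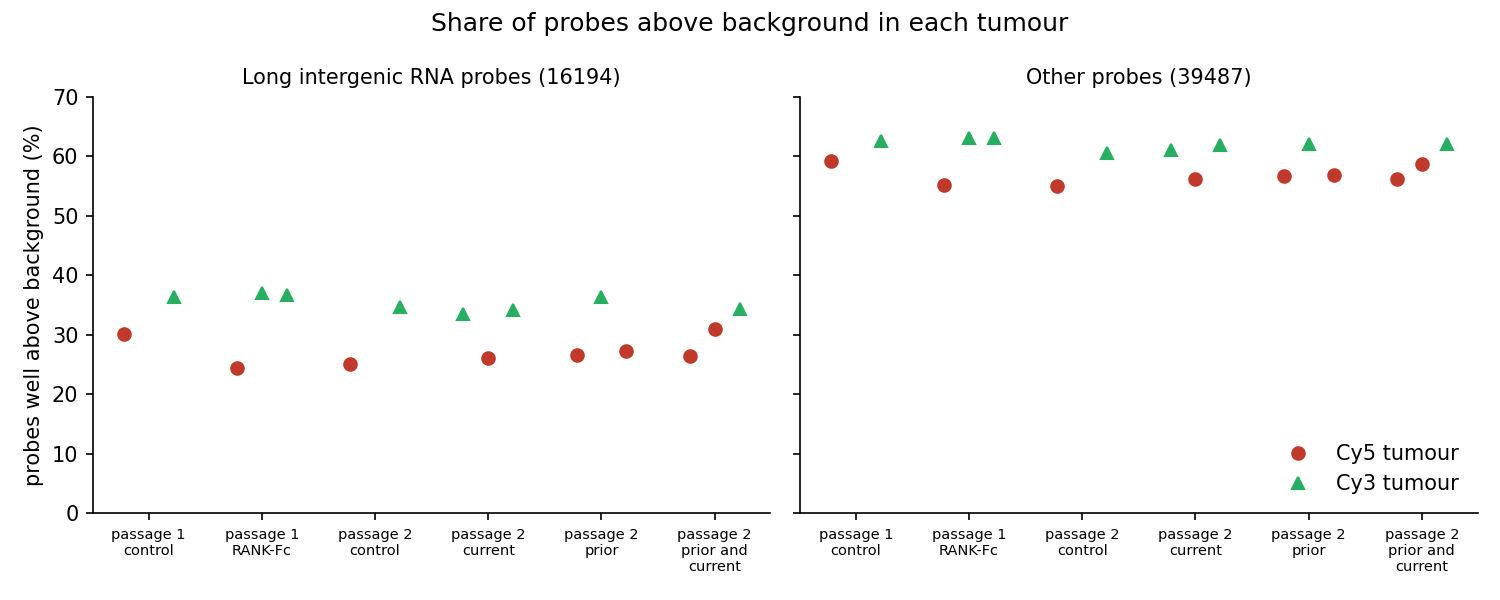
Percent of probes well above background (vertical axis) in each tumour (1 point) by group (horizontal axis), for the 16194 long intergenic RNA probes on the left and the 39487 other probes on the right. Cy3 tumours, drawn as triangles, lie above Cy5 tumours, drawn as circles, in every group and in both panels.

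The level at which a probe became a member was low. Members detected throughout only 1 of the 6 groups numbered 530, with a median log2 intensity of 6.50 over the 16 tumours. Candidates just outside the rule, above background in some tumours but in no complete group, numbered 3357, with a median of 6.31. The 3210 members detected in all 16 tumours had a median of 7.60. Passage 1 controls, a group of 2 tumours, completed the rule for 4595 probes and passage 1 RANK-Fc, a group of 3, for 3765. These 2 groups differ in size and in dyes. Passage 2 controls, equal to passage 1 controls in size and dyes, completed it for 3879. Of the 530 members detected throughout only 1 group, 344 were so in passage 1 controls.

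The 16194 probes lie in 3543 intervals with a median length of 7304 bases, and 1067 of the intervals carry probes for both strands. A region and strand had from 1 to 10 probes. Of 3920 regions and strands with at least 2 probes, 2195 had a member; in 498 of these every probe was a member and in 974 only 1 was. Among 856 intervals with both strands on the array and at least 1 member, members lay on both strands in 424, on the forward strand alone in 197 and on the reverse strand alone in 235. Members came from 20 chromosomes, and the share of candidates kept ran from 22.6% on chromosome 9 to 36.7% on chromosome 17.

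The comparison of passages asked whether tumours differ between the first and the second round of transplantation at equal treatment. Here 5 tumours of passage 2 (untreated or with current RANK-Fc) were set against the 5 of passage 1. With limma and Benjamini-Hochberg adjustment over all 28495 probes, 297 of the 4945 members passed an adjusted p of 0.05, which is 6.01%; over all probes tested 9.2% passed. Of the 297, 85 rose in passage 2 (3.35% of all probes tested did) and 212 fell (5.85% of all probes did). The median difference over all members was 0.03 on the log2 scale, next to 0.01 over all probes tested. Restricting to probes above background in all 16 tumours gave 208 of 3210 members (6.48%), 68 of them higher and 140 lower, where 9.39% of all such probes passed. Of the 1735 members above background in only some tumours, 89 passed (5.13%), 17 higher and 72 lower. These include the 344 that became members through passage 1 controls alone, so the directions of such members are not independent of the rule.

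Changes were mostly small. Members that rose had a median difference of 0.46 (log2), 5 of 85 rose by more than 1, and the largest value was 3.07. Members that fell did so by a median of 0.51, 22 of 212 fell by more than 1, and the lowest value was -1.73. Counts depended on single tumours: without c641 there were 119 calls, without c566 125, without c642 173, without c567 178 and without c564 191. When channels were scaled by their median alone, 237 members passed, 18 of them higher. A fit on the 8 ratios between the colours of an array, which leaves few degrees of freedom, called 0 members with limma. Untreated tumours alone (2 against 2) gave 48 calls and tumours with current RANK-Fc alone (3 against 3) 135. Counts over all probes are not given beside these, so whether members moved more than the whole array cannot be read from them.

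**Figure D2:**
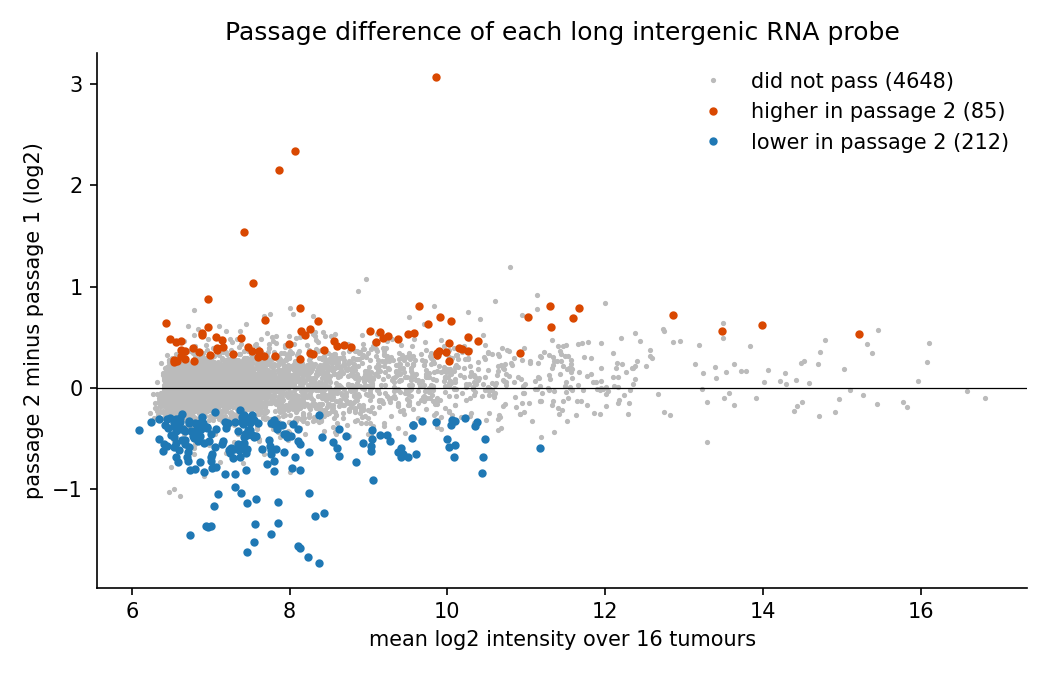
Difference between passage 2 and passage 1 on the log2 scale (vertical axis) against the mean log2 intensity over 16 tumours (horizontal axis), 1 point for each of the 4945 members. The 85 members that rose are orange, the 212 that fell are blue, and the highest orange points reach 3.07.

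The smallest p among members that fell belonged to A_30_P01026062, a probe on the reverse strand of chr15:32167516-32174427. Its log2 intensity in passage 1 was 8.76 and 8.99 in the controls and 8.76, 8.99 and 8.92 under RANK-Fc. In passage 2 it was 6.96 and 7.06 in the controls and 7.57, 6.97 and 8.07 under current RANK-Fc. All 5 tumours of passage 1 lay above all 5 of passage 2, with a difference of -1.59 ± 0.19 (SE, n = 5 against 5, limma adjusted p = 0.000515). All 4 other probes of this region and strand fell as well, by -0.98 to -1.73, as did all 4 reverse-strand members of the nearly identical interval chr15:32167516-32174417. The single member of the opposite strand at the same interval had -0.12 and did not pass. Tumours with prior RANK-Fc alone had 9.13, 8.63 and 8.37 on A_30_P01026062, near passage 1, and tumours with prior and current RANK-Fc had 7.27, 7.99 and 7.68.

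A probe with a name of its own followed the same tumours: that of Snhg18, a host gene of small nucleolar RNAs. Its probe had 9.06 and 9.36 in passage 1 controls, 9.07, 9.31 and 9.34 in passage 1 RANK-Fc, 7.26 and 7.20 in passage 2 controls and 7.72, 7.05 and 8.32 with current RANK-Fc. The passage difference was -1.73 ± 0.22 (SE, limma adjusted p = 0.000844). Over the 16 tumours the correlation with A_30_P01026062 was r = 0.99 (Spearman rho = 0.96), 0.98 within the 11 tumours of passage 2, and 0.99 without c642 and c635. Of all passing probes with a gene symbol it was the highest, and it was looked up after the values had been seen. No position of the Snhg18 probe was used here, and whether both probes lie in 1 transcript was not tested.

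The fourth smallest p among members that fell was that of A_30_P01029943, forward strand of chr19:23064968-23069896. Passage 1 tumours had 8.35, 8.25, 8.03, 8.55 and 8.13, and passage 2 tumours 6.36 and 6.81 (controls) and 7.05, 6.75 and 6.72 (current RANK-Fc), of which 4 of 5 were above background. The groups did not overlap, and the difference was -1.52 ± 0.19 (SE, limma adjusted p = 0.000769). Both other probes of that region and strand fell too, by -0.81 and -1.35. With prior RANK-Fc alone the tumours had 8.77, 7.83 and 7.69, and with prior and current RANK-Fc 6.86, 7.25 and 7.33.

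A_30_P01024294 on the reverse strand of chr11:104304424-104329824 had 7.21 to 7.70 in passage 1 and 6.90 to 6.98 in passage 2, a difference of -0.62 ± 0.08 (SE, limma adjusted p = 0.000737). In that place 7 of 9 members fell, and all 9 had a negative difference. A_30_P01024922 on the reverse strand of chr13:34693404-34717987 had 7.35 to 7.65 in passage 1 and 6.53 to 6.99 in passage 2, where 3 of the 5 tumours were above background, a difference of -0.78 ± 0.10 (SE, limma adjusted p = 0.000737). Membership of A_30_P01024922 may thus rest on passage 1, where it was high, so its p is a description. Of the 4 other members on its region and strand 2 fell, and their differences ran from -0.81 to 0.17. A_30_P01024852 on the reverse strand of chr10:94870971-94871658 ran from 7.59 to 8.66 in passage 1 and from 6.67 to 7.23 in passage 2, a difference of -1.14 ± 0.15 (SE, limma adjusted p = 0.000844), and both other probes of the region and strand fell too.

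Among members that rose, the smallest p was that of A_30_P01023606 on the reverse strand of chr4:146507925-146532650. It had 9.21 and 9.22 in passage 1 controls and 9.20, 9.23 and 9.26 under RANK-Fc, against 9.71 and 9.88 in passage 2 controls and 9.70, 9.73 and 9.85 under current RANK-Fc. The passages did not overlap, and the difference was 0.53 ± 0.08 (SE, limma adjusted p = 0.00139). All 5 members of this region and strand rose, by 0.35 to 0.53, while none of its 3 forward-strand probes was a member. The 6 tumours with prior RANK-Fc, with a low of 9.27, a median of 9.52 and a high of 9.73, all lay above passage 1 and overlapped passage 2.

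A second place on chromosome 4, chr4:86267450-86277650 on the forward strand, had 4 members and all of them rose, by 0.45 to 0.88. Its probe A_30_P01031893 had 6.41 to 6.56 in passage 1, with 3 of 5 tumours above background, and 7.04 to 7.83 in passage 2, a difference of 0.88 ± 0.14 (SE, limma adjusted p = 0.00197). The mean of the 4 members was 6.45 to 6.57 in passage 1, near the level at which a probe became a member. Membership here may thus rest on tumours with higher values, so these rises and this p are a description. A_30_P01027321, on the reverse strand of the short interval chr13:94190118-94190496, rose by 0.81 ± 0.13 (SE, limma adjusted p = 0.00288), from 8.89 to 9.50 in passage 1 to 9.59 to 10.36 in passage 2. Neither of the 2 other probes on that region and strand was a member. The 22 members of overlapping intervals ran from -0.50 to 0.39, and 6 of them passed. A_30_P01031107 on the forward strand of chr7:50509139-50526856 was not well above background in any of the 5 tumours of passage 1 and was above it in 4 of the 5 of passage 2. Its measured values were 5.93 to 6.18 in passage 1 and 6.23 to 6.96 in passage 2; it became a member through tumours of passage 2, so these values are a description without a test.

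**Figure D3:**
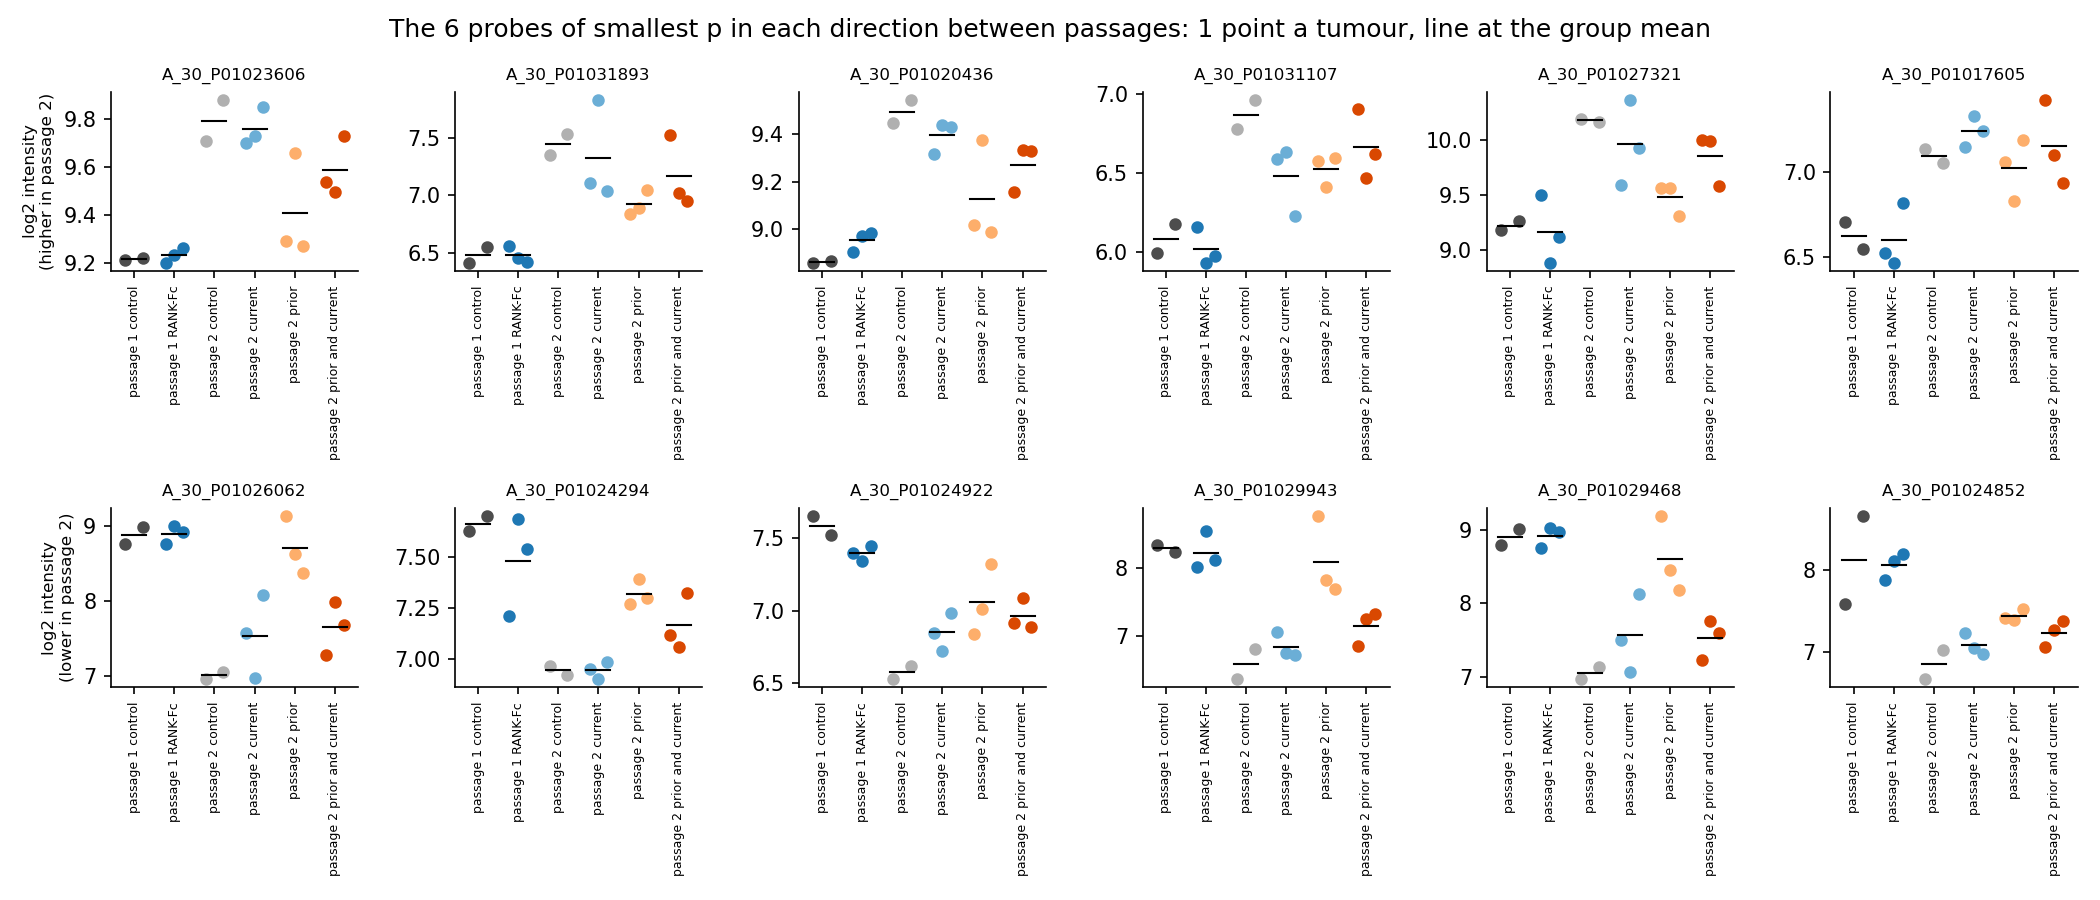
Log2 intensity (vertical axis) of the 6 probes of smallest p that rose in passage 2 (top row) and the 6 that fell (bottom row), by group (horizontal axis), with 1 point per tumour and a line at each group mean. In the bottom row the tumours with prior RANK-Fc alone lie above the passage 2 controls for A_30_P01026062, at 8.37 to 9.13 against 6.96 and 7.06.

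Calls gathered in places. The 297 members came from 143 places, taking overlapping intervals together, and 57 places had at least 2 of them. A total of 267 called members had at least 1 other member on the same region and strand; of these 764 pairings, 701 (91.8%) had the same sign. No region and strand held calls in both directions. Over all 1221 regions and strands with at least 2 members, called or not, the first pair of probes had the same sign in 906 (74.2%), and across these pairs r was 0.66 (Spearman rho = 0.63; genomic places share arrays and are not replicates). On the opposite strand, 113 of 191 pairings had the same sign.

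**Figure D4:**
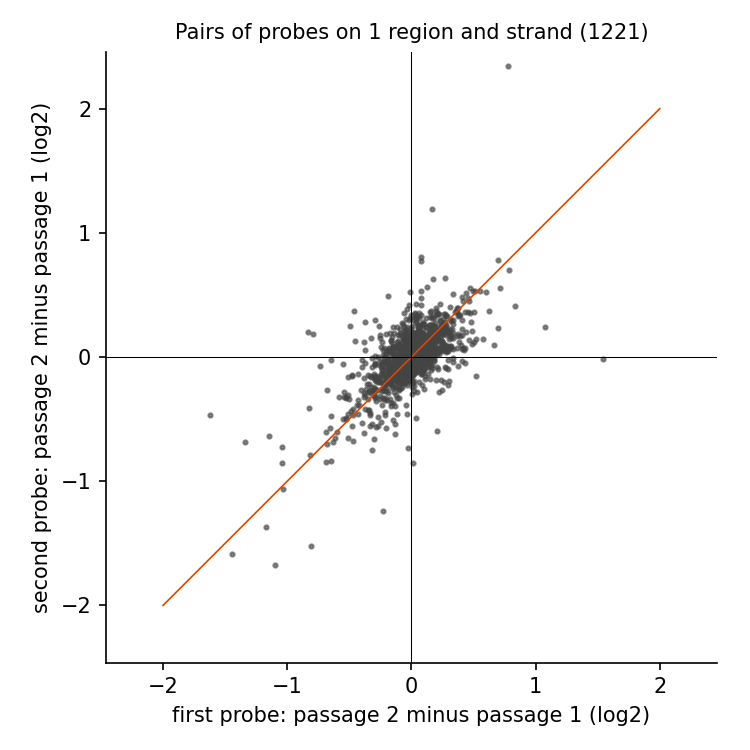
Passage difference (log2) of a second probe (vertical axis) against that of a first probe (horizontal axis) on the same region and strand, 1 point for each of 1221 regions and strands, with the line of equal values. Points gather along the line, and 906 pairs have the same sign.

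Some of the places with 4 or more calls are given here by their members' mean over tumours. They were singled out after the calls were known, so this is a description. Other places were less uniform. At chr13:28477490-28985604, 7 of 22 members fell, with differences from -0.82 to 0.30 (median -0.20). At chr18:36449530-36456800, 7 of 15 fell, with differences from -0.65 to 0.17 (median -0.34). At chr6:31017987-31293337, 14 of 18 members fell: 8 of 10 on the forward strand and 6 of 8 on the reverse strand. The forward-strand mean ran from 7.67 to 7.87 in passage 1 and from 7.21 to 7.56 in passage 2. On the reverse strand the mean was 8.54 or more in each tumour of passage 1 and ran from 8.15 to 8.51 in passage 2. All 5 tumours of passage 1 lay above all 5 of passage 2 on both strands, and the 6 tumours with prior RANK-Fc, at 7.20 to 7.55 and 8.12 to 8.49, stayed at the level of passage 2.

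At chr2:174088550-174109425, 4 of 5 members on the reverse strand and 1 of 2 on the forward strand fell. The reverse-strand mean was 7.37 and 7.55 in passage 1 controls and 7.22, 7.66 and 7.61 under RANK-Fc, against 6.44 and 6.28 in passage 2 controls and 6.59, 6.28 and 6.37 under current RANK-Fc. Tumours with prior RANK-Fc alone had 7.38, 6.68 and 7.70, while those with prior and current RANK-Fc had 6.40, 6.63 and 6.42. The groups lay in a similar order at chr14:105987405-106063477, where all 4 members fell. There the forward-strand mean of 3 members was 7.49 to 7.99 in passage 1, 6.47 to 7.01 in passage 2, 7.14 to 7.75 with prior RANK-Fc and 6.71 to 7.03 with prior and current RANK-Fc. The lowest passage 2 means given for these 2 places, 6.28 and 6.47, lay below 6.50, the median of members detected throughout only 1 group. Members of both places may have passed the rule through tumours with higher values, so their directions may not be independent of it.

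At chr3:87757295-87774970 the 5 forward-strand members had a mean of 12.01 to 12.55 in passage 1 and 12.80 to 13.00 in passage 2, and 4 of the 5 rose. At chr9:96632664-96654148, 5 of 8 reverse-strand members rose and all 8 were positive, with means of 6.98 to 7.23 in passage 1 and 7.30 to 7.86 in passage 2. Here both prior RANK-Fc groups stayed at the passage 2 level, at 7.54 to 7.82 and 7.49 to 7.95.

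At chr17:12941161-12944859, an interval named without a strand, 4 of 5 members fell, and all 5 were lower in passage 2, by -0.45 to -0.66.

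In 2 places members called on one strand rose and members called on the other fell. At chr5:35975265-35982561, all 4 reverse-strand members rose, by 0.37 to 0.63, and all 4 forward-strand members were lower, by -0.33 to -0.63, of which 2 passed. The reverse-strand mean was 8.62 to 8.90 in passage 1 and 9.01 to 9.51 in passage 2, without overlap. The forward-strand mean was 8.24 to 8.70 in passage 1 and 7.79 to 8.30 in passage 2, with overlap. At chr13:94180737-94203935, 5 of 14 reverse-strand members rose and 2 of 9 forward-strand members fell. The median difference of those 9 was 0.04, and their mean overlapped between passages, at 6.87 to 7.07 and 6.85 to 6.99.

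Cell type markers varied between the passages beside these results. Fibroblast markers had a median passage difference of -0.88, with a mean level of 11.66 to 12.38 in passage 1 and 10.23 to 13.33 in passage 2. The 13.33 was that of c646. The other 4 tumours of passage 2 lay below all 5 of passage 1 on Col1a1, Col1a2, Col3a1, Pdgfra and Lum, but not on Dcn. Adipocyte markers had a median of -0.87, with 8.02 to 10.48 and 7.49 to 8.65. None of the 6 fibroblast markers passed, nor any of the 3 adipocyte markers tested, on which the adipocyte median rests. Of the 8 epithelial markers 1 passed: Elf5, a transcription factor of the luminal alveolar lineage, rose by 0.57 (limma adjusted p = 0.0252). Tumour c646 had the highest fibroblast, macrophage, endothelial, erythroid and skeletal muscle means of the 5 tumours of passage 2. Its muscle markers included Myh4 at 10.22 and Myl1 at 9.10, which were at 6.41 or less in the other 4, while Acta1, the 1 muscle marker tested, did not pass (0.59, limma adjusted p = 0.667). Without c646 the count of members called was 214, and the matching count over all probes is not given here. The part of cell composition in the passage calls was not tested.

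Long noncoding RNAs with names were on the array too, and were counted from a list of known ones and the array's own names. Of 81 such RNAs, 54 had a probe and 40 were tested, each by its brightest passing probe. In the passage comparison 6 fell and none rose (9.2% of all probes were called), and the median was -0.05. Besides Snhg18, the ones that fell were Lncpint (-0.64 ± 0.13), transcribed from an intergenic stretch and known as a p53-induced RNA; Airn (-0.55 ± 0.11), the paternally expressed antisense transcript of the Igf2r cluster; Kcnq1ot1 (-0.48 ± 0.10), the antisense transcript of the Kcnq1 imprinted domain; Mir99ahg (-0.43 ± 0.09), a microRNA host gene; and Mirt1 (-0.50 ± 0.14), with limma adjusted p of 0.00927, 0.00995, 0.00996, 0.00848 and 0.0396. The brightest Lncpint probe had 9.64 and 9.26 in passage 1 controls and 9.20, 9.21 and 9.07 in passage 1 RANK-Fc, against 9.12 and 8.29 in passage 2 controls and 8.47, 8.74 and 8.57 with current RANK-Fc, so 1 control of passage 2 reached the range of passage 1. Probes of Kcnq1ot1 disagreed: the others had -0.22 ± 0.10 and 0.06 ± 0.15 and did not pass. Neat1, the architectural RNA of paraspeckles, had 14.52 on average with a difference of -0.01 ± 0.12 (limma adjusted p = 0.972).

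Current RANK-Fc was compared with no current treatment in passage 1, in passage 2 and after prior RANK-Fc, and the 3 differences were averaged (9 tumours against 7). None of the 4945 members passed with limma (0% of all probes tested did), and the smallest adjusted p of a member was 0.587; at an unadjusted p under 0.05 there were 288 members (5.82%), next to 7.03% of all probes tested. Within passage 1 (3 tumours against 2) and within passage 2 (3 against 2), 0 members passed with limma, again with 0% of all probes; at an unadjusted p under 0.05 there were 76 members (1.54%, next to 1.91% of all probes) and 188 (3.80%, next to 4.12%). The median member differed by -0.02, -0.01 and -0.03 (log2) in these comparisons. The groups are small, and a p that misses the threshold does not show that the levels were alike.

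The member of smallest p for current RANK-Fc was A_30_P01029761 on the forward strand of chr9:88437245-88465751. It had 8.99 and 9.18 without and 8.43, 9.01 and 8.51 with RANK-Fc in passage 1, 8.85 and 8.94 against 8.54, 8.22 and 8.32 in passage 2, and 8.59, 8.77 and 8.70 against 8.46, 8.58 and 8.71 after prior RANK-Fc. The ranges met in passage 1 and after prior RANK-Fc and parted in passage 2. The mean difference was -0.38 ± 0.07 (SE, limma adjusted p = 0.587), which did not pass. In the other direction A_30_P01018763 on the reverse strand of chr16:59556175-59603176 had 0.28 ± 0.06 (SE, limma adjusted p = 0.587). Its treated tumours exceeded the untreated ones within each of the 3 settings. In passage 1 they had 7.11, 7.25 and 7.13 against 6.94 and 7.08. In passage 2 they had 6.81, 6.97 and 6.97 against 6.50 and 6.66. After prior RANK-Fc they had 7.08, 6.93 and 7.06 against 6.58, 6.58 and 6.83. The lowest untreated values lay near 6.50, the median of members detected throughout only 1 group. Membership of A_30_P01018763 may thus rest on tumours with higher values, so this order and its p are a description.

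Prior RANK-Fc was compared within passage 2, over tumours without and with current RANK-Fc (6 tumours against 5). No member passed with limma, while 0.193% of all probes tested did; at an unadjusted p under 0.05 there were 486 members (9.83%), next to 13.6% of all probes. Comparing prior RANK-Fc alone with passage 2 controls (3 against 2) again called 0 members with limma, where 0.00351% of all probes passed; at an unadjusted p under 0.05 there were 195 members (3.94%), next to 6.63% of all probes. Prior and current RANK-Fc together against the same controls (3 against 2) called 0 members with limma, where 0.0421% of all probes passed; at an unadjusted p under 0.05 there were 313 (6.33%), next to 8.49% of all probes. For the difference between the effects of current RANK-Fc with and without prior treatment, no member passed with limma (0% of all probes), with 187 (3.78%) at an unadjusted p under 0.05, next to 6.09% of all probes. The smallest p there was that of A_30_P01020315 on the forward strand of chr9:13349094-13352732, at -0.71 ± 0.12 (SE, limma adjusted p = 0.607), with 9.12 and 8.75 in controls, 9.06, 9.33 and 9.12 with current, 9.48, 9.16 and 9.51 with prior, and 9.12, 8.92 and 8.83 with prior and current RANK-Fc.

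The count of 0 for prior RANK-Fc changed with single tumours: leaving out c633 gave 10 calls, c607 6, c559 2, and c642, c608 or c603 1 each. Without c603 there was also 1 call for prior RANK-Fc alone, and without c642 1 for prior and current RANK-Fc. The matching counts over all probes are not given here, so a move particular to members cannot be read from these counts. The smallest adjusted p was that of A_30_P01026062 on chromosome 15, 0.93 ± 0.18 higher with prior RANK-Fc (SE, limma adjusted p = 0.0603), followed by A_30_P01025757 on the forward strand of chr3:9635102-9661327. The latter had 10.58, 10.47 and 10.37 with prior RANK-Fc, 10.43, 10.51 and 10.68 with prior and current RANK-Fc, 10.07 and 10.06 in controls and 10.27, 10.14 and 10.16 with current RANK-Fc. All 6 tumours with prior RANK-Fc lay above the other 5 of passage 2, and the difference was 0.39 ± 0.07 (SE, limma adjusted p = 0.0617). It shares its 5 comparison tumours with the passage comparison above.

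Lower with prior RANK-Fc, and also short of the threshold, were both A_30_P01021240 and A_30_P01032068 from the reverse strand of chrX:50400250-50410825. A_30_P01021240 had 6.45, 6.35 and 6.41 with prior RANK-Fc and 6.68, 6.67 and 6.36 with prior and current RANK-Fc, against 6.85 and 6.70 in controls and 6.87, 7.06 and 7.01 with current RANK-Fc. Only 2 of the 6 tumours with prior RANK-Fc were above background, against all 5 others of passage 2, and the difference was -0.42 ± 0.08 (SE, limma adjusted p = 0.0731). Neither group with prior RANK-Fc thus completed the rule for A_30_P01021240. Its membership is not independent of these levels, so its p is a description and not a test. A_30_P01032068 had a difference of -0.77 ± 0.17 (SE, limma adjusted p = 0.0879), and its highest value, 9.17, was in c635.

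For the 4 members of smallest p among those that fell between passages, prior and passage values stand side by side as follows; both comparisons use the same 5 tumours of passage 2. A_30_P01026062 had -1.59 for passage and 0.93 for prior RANK-Fc, A_30_P01029943 -1.52 and 0.94, A_30_P01024294 -0.62 and 0.31, and A_30_P01024922 -0.78 and 0.29. None of the prior values passed (limma adjusted p from 0.0603 to 0.212). Against passage 2 controls, A_30_P01026062 was higher by 1.67 ± 0.25 with prior RANK-Fc alone and by 0.58 ± 0.26 with prior and current RANK-Fc (SE, limma adjusted p = 0.105 and 0.566).

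A test for any difference among the 6 groups called 99 members (2.0%) with limma's moderated F, where 3.36% of all probes passed. The smallest p was that of A_30_P01033484 on the forward strand of chr15:85412264-85549139 (limma adjusted p = 0.00473). It had 7.30 and 7.49 in passage 1 controls, 7.25, 6.94 and 7.04 in passage 1 RANK-Fc, 6.94 and 6.73 in passage 2 controls, and between 6.26 and 6.61 in the remaining 9 tumours. Passage 1 controls were highest, and the ranges of passage 1 RANK-Fc and passage 2 controls met at 6.94. Only 11 of the 16 tumours were above background. Its membership thus rested on part of the tumours and is not independent of these levels, so its p is a description and not a test. A_30_P01019322 on the reverse strand of chr9:96635508-96654148 (limma adjusted p = 0.00871) had 7.41 to 7.78 in passage 1 and 7.82 to 8.66 in passage 2, including the tumours with prior RANK-Fc. The count of 99 fell when single tumours were left out: to 25 without c558, 28 without c564, 36 without c607, 37 without c641, 38 without c567, 39 without c566, 42 without c559, 45 without c642, 62 without c646 and 64 without c608. Counts over all probes are not given beside these, so whether members moved more than the whole array cannot be read from them.

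The members that varied most over the 16 tumours formed recurring patterns. Members had a median SD of 0.17 (log2) over tumours, and the other probes 0.19. A_30_P01026531 on the forward strand of chr8:108153471-108159672 had the largest SD, 1.86. Its values were 7.44 and 8.34 in passage 1 controls, 9.13, 7.15 and 8.91 in passage 1 RANK-Fc, 9.85 and 10.85 in passage 2 controls, 10.89, 12.48 and 13.58 with current RANK-Fc, 7.62, 9.37 and 8.87 with prior RANK-Fc, and 12.11, 10.80 and 10.38 with both. The highest was c646 and the lowest c567. The passage difference was 3.07, the largest of any member that rose (limma adjusted p = 0.0073).

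Probes from other chromosomes took the same course. A_30_P01023759, reverse strand of chr16:8738782-8830148, ran from 6.38 to 11.25 and A_30_P01028811, forward strand of chr12:56607657-56613582, from 6.13 to 10.91, both highest in c646. Over the 16 tumours A_30_P01026531 had r = 0.99 with each (Spearman rho = 0.98), and r = 0.98 without c646 and c635. Among probes with a gene symbol, Csn1s1, which codes for a milk casein, was among the 3 with the highest r, 0.97 (Spearman rho = 0.97), with 10.45 and 10.36 in passage 1 controls, 12.23, 9.80 and 12.75 in passage 1 RANK-Fc, 13.30 and 13.70 in passage 2 controls, and 14.45, 15.64 and 17.04 with current RANK-Fc. It had 10.52, 12.77 and 12.63 with prior RANK-Fc and 15.41, 13.55 and 14.41 with prior and current RANK-Fc. Csn2, another casein, had r = 0.94. The other 2 of highest r were Sycn and Fam170b. Within the 11 tumours of passage 2, r was 0.97 for Csn1s1. Pairings were picked as the highest among 28495 probes after the values were seen, so no p is given.

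Few other probes in these regions were members. None of the 4 other probes on the region and strand of A_30_P01026531 was a member, nor any of the 4 others of A_30_P01028811, and 2 of 9 others of A_30_P01023759 were, with passage differences of 0.34 and 0.78 that did not pass. No sequence of a probe was used here, and whether these probes share sequence with an abundant transcript was not tested.

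A different pattern set 2 tumours apart. A_30_P01017881, reverse strand of chr3:88009045-88036270, had 8.27 in c609 and 8.71 in c626, and 10.37 to 12.14 in the other 14 tumours. A_30_P01029628, reverse strand of chr9:81537835-81583227, had 7.37 and 7.84 in the same tumours and 9.30 to 11.32 in the others. A_30_P01018781, forward strand of chr6:116092274-116144199, had 10.53 and 9.42 there and 10.72 to 13.26 elsewhere. Tumours c609 and c626 belong to different groups and were hybridised to the same array.

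Over all members without a missing value, c609 and c626 were the 2 lowest tumours for 466 of 4937 (9.44%). For the other 7 arrays the same count for their own pair of tumours was 11 to 104 (0.22% to 2.11%). Among the other probes of the array, c609 and c626 were the 2 lowest for 3.84%. They were also the 2 lowest for 32 of the 100 members of largest SD. A_30_P01017881 had r above 0.9 with 20 other members, which with it lay on 13 chromosomes. With these 2 tumours left out, 423 members passed in the passage comparison, 155 of them higher, and 0 in each RANK-Fc comparison with limma. The matching count over all probes is not given here. Since each tumour was measured on 1 array, the array and the pair of tumours cannot be told apart.

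**Figure D5:**
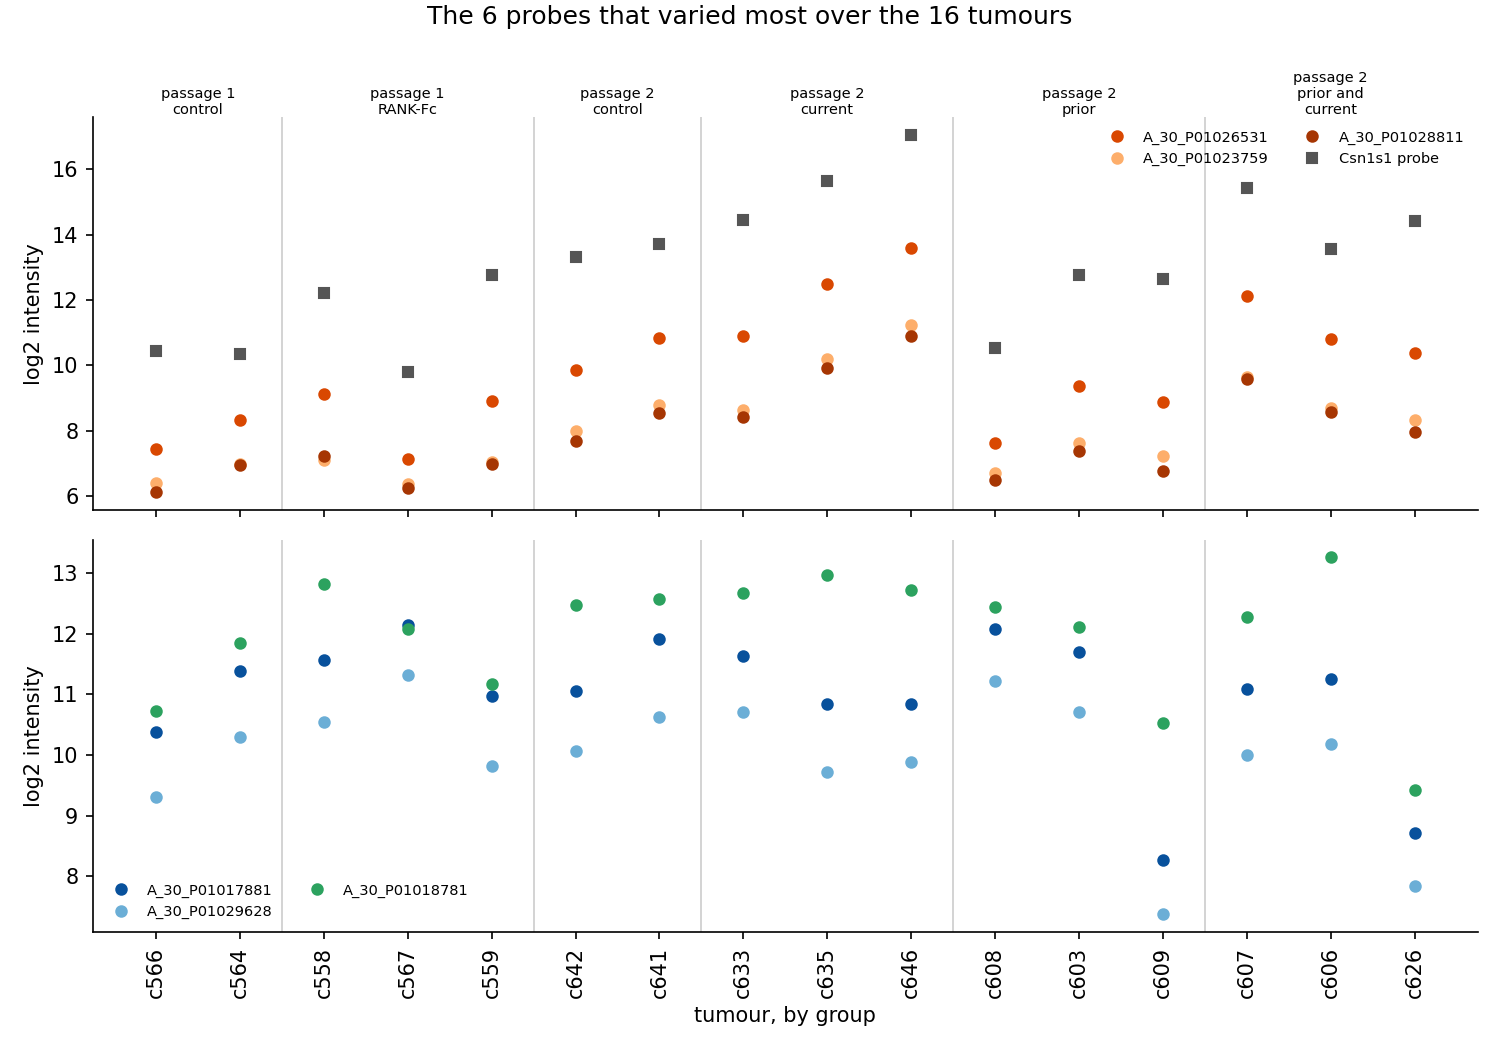
Log2 intensity (vertical axis) of the 6 members of largest SD in each of the 16 tumours (horizontal axis, by group). The upper panel holds the 3 probes that follow the Csn1s1 probe (squares) and peak in c646; the lower panel holds the 3 that are lowest in c609 and c626.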

How the data were processed

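RNA of 16 tumours was hybridised to 8 Agilent arrays with 2 colours, on 1 slide with 1 scan time. Per the file headers, scanning software (Agilent Feature Extraction, version 10.7.3.1) gave the deposited median intensity of each spot and its local background, processed intensities, the log10 ratio of red over green and detection marks of 0 or 1. Median intensities were background-corrected (normexp, offset 50), normalised by loess within arrays, with control spots at weight 0, and by Aquantile between arrays, and put on the log2 scale. Spots marked as outliers (239 to 337 per array) were set missing, and repeat spots of a probe were averaged. A probe counted as above background in a tumour where a share of at least 0.5 of its spots carried the mark.

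Group means and a dye term were fitted with limma 3.58.1 (R 4.3.3, statmod 1.5.0), with the array as block and a corrected intraspot correlation of 0.258 (limma's own estimate was 0.293). The planned lmscFit takes no missing values, so lmFit was used. Adjusted p-values are Benjamini-Hochberg over all 28495 probes passing, with a threshold of 0.05. The fit has 9 residual degrees of freedom. Values per tumour are normalised log2 intensities, and differences are dye-adjusted. The procedure was tested on simulated data. Figures were drawn with matplotlib 3.10.9.

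The members, the lists and the tests were chosen with earlier results of these data known. Named probes are those of smallest p per comparison (up to 6 a direction among those passing, otherwise 2), the 6 of smallest p over all groups and the 6 of largest SD; places, tumours and gene probes singled out beyond these were chosen after their values were seen. The part of that rule on nearest genes was not run, since no gene positions in mm9 were used, and no probe sequence was used here. A table with 8 columns of normalised values was not used because its column names match no sample. Alternatives covered background, normalisation, filter, dye term, correlation, variance trend, samples and 1 value per region; 4 of them were chosen after seeing the data.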

Additional observations from a re-analysis of the deposited data

Results flagged for a closer look

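For 5 of the named probes, every tumour with current RANK-Fc lay on one side of the untreated tumours in 1 setting and on the other side in another; these differences between settings were not tested. A_30_P01020436 on chromosome 4 differed by 0.0718 (log2, treated minus untreated) in passage 1 and by -0.0878 in passage 2. A_30_P01024922 on chromosome 13 had -0.172 in passage 1 and 0.2417 in passage 2. A_30_P01026823 on chromosome 5 had -0.4095 in passage 1, 0.0815 in passage 2 and 0.1839 after prior RANK-Fc. A_30_P01033581 had -0.4197 in passage 1 and 0.0425 in passage 2. A_30_P01023510 on the X chromosome had -0.193 in passage 1 and 0.3553 after prior RANK-Fc. A_30_P01026823 and A_30_P01033581 had been named for their difference in passage 1. A_30_P01023510 had been named for the difference between the effects of current RANK-Fc with and without prior treatment. Values shown here were thus part of the choice of these probes, and the share of all probes with such a pattern is not given.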

How the results depend on the processing

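Numbers of members called moved with several choices. They are given without the counts over all probes, so a move particular to members cannot be told from one of the whole array. For prior RANK-Fc, 2 members passed without background subtraction, 10 with the scanner's processed signals and 1 with quantile normalisation, against 0; with processed signals 1 also passed for prior RANK-Fc alone and 1 for prior and current RANK-Fc. For any difference among groups, 36 passed after median centring, 65 among probes above background in all 16 tumours, 28 with 1 value per region and strand and 0 from ratios alone, against 99. For passage, 119 of 2443 passed with 1 value per region and strand, 0 from ratios alone, and, chosen after seeing the data, 48 in untreated tumours and 135 in tumours with current RANK-Fc, against 297. Leaving out 1 tumour gave 119 to 354 calls for passage, 0 to 10 for prior RANK-Fc, 0 to 1 for prior RANK-Fc alone, 0 to 1 for prior and current RANK-Fc and 25 to 93 for any difference. The share of candidates kept was 57.13% by the weaker positive-and-significant mark, 51.27% when 1 tumour sufficed and 19.82% when all 16 were required, against 30.54%. The difference of A_30_P01022594 for prior and current RANK-Fc turned from -0.67 to 0.05275 when the probes of its region and strand were averaged; the cause was not tested. The size of a difference could also move with the processing. A_30_P01031893, above background in 3 of 5 tumours of passage 1, differed between passages by 0.88 in the main fit, which has an added offset. With processed signals, to which no offset was added, it differed by 2.33. These settings also differ in background correction and normalisation, and the offset was not varied alone, so the cause was not tested. No paired analysis was possible because the labels give tumours names of their own and no number shared between groups.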
